A study of Homo sapiens with 24 samples.

Results

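The 7 insulin-like growth factor binding protein genes, IGFBP1 to IGFBP7, were followed through the RNA-seq of U87-T glioblastoma cells with DAXX or ATRX knocked out. They were chosen by name, as the complete family of classical members IGFBP1 to IGFBP6 with the related IGFBP7. All 7 were found among the 57736 genes of the count table. U87-T cells are the human glioblastoma line U87 transduced with a TERT transgene, TERT being the catalytic subunit of telomerase.

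The comparisons covered 8 groups of 3 libraries, in a DAXX series and an ATRX series with WT libraries of their own. In the DAXX series these were WT cells without drug, WT cells with etoposide, DAXX_KO cells without drug and DAXX_KO cells with etoposide. The ATRX series held the same 4 arrangements with ATRX_KO in the place of DAXX_KO. The WT cells carried an empty Cas9 lentiviral vector besides the TERT transgene. Each knockout line was a single CRISPR clone that had survived with alternative lengthening of telomeres, so that an effect of the lost gene and one of the clone cannot be told apart. Etoposide is a topoisomerase II poison that leaves DNA double-strand breaks, and its dose and time in the RNA-seq cultures are not given in the sources used here. The study calls its replicates biological in general terms, but whether these libraries came from separate cultures is not given for them, so that p-values measure the spread between libraries, which may be technical.

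The count totals ran from 6928950 to 13298557 per library. DAXX mRNA was 34.97 ± 1.93 CPM in WT control cells of the DAXX series and 5.89 ± 1.10 CPM in DAXX_KO (mean ± SD, n = 3 each), and ATRX mRNA was 192 ± 4.79 CPM in WT and 80.5 ± 6.24 CPM in ATRX_KO. CPM are counts scaled to the library total after TMM normalization, a correction computed by edgeR. A characteristic tag of the DAXX_KO libraries names ATRX as the lost gene, whereas their titles name DAXX, and the titles were followed. The mesenchymal glioblastoma markers VIM (1210 to 6300 CPM) and CD44 (337 to 1080 CPM) were abundant in all 24 libraries. Of 17 markers of other cell types, AQP4 (astrocyte), CD3E (T cell), KRT5 (epithelial), CDH5 (endothelial), ALB and TTR (hepatocyte) were at or under 3 counts in all 24 libraries, and GFAP (astrocyte) and APOA1 (hepatocyte) in 23. The astrocyte marker SLC1A3 (2.72 to 17.7 CPM), the neuron markers SYT1 (9.89 to 36.4 CPM) and SNAP25 (2.53 to 20.5 CPM) and the immune marker CD68 (17.8 to 40.7 CPM) were above 3 counts in every library, and RBFOX3, PTPRC, EPCAM, CDH1 and VWF in some. The neuron list summed to 55.1 CPM in DAXX_KO control cells, its highest group, and to 17.8 CPM in ATRX_KO with etoposide, its lowest. The summed level of the 6 mesenchymal markers differed between groups, with group means from 2240 CPM in DAXX_KO with etoposide to 7570 CPM in WT control cells of the DAXX series, and the part of these differences in the results was not tested.

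Insulin-like growth factors are secreted ligands that act on the receptor tyrosine kinase IGF1R. The binding proteins are secreted too, hold the ligands with high affinity, and thereby limit or prolong their access to the receptor until proteases such as the pappalysins release them. IGFBP1 is a liver and decidua protein whose transcription insulin represses, IGFBP2 is a fetal and glioma-associated form that also binds integrins, and IGFBP3 is the main serum carrier and a known target of p53. IGFBP4 is an inhibitory form cleaved by PAPPA, IGFBP5 binds extracellular matrix, IGFBP6 prefers IGF2, and IGFBP7 binds the ligands weakly and is secreted by senescent cells.

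The members lie on 5 chromosomes, in GRCh37 coordinates of the GENCODE annotation. IGFBP1 (ENSG00000146678, 7:45927959-45933259, plus strand) and IGFBP3 (ENSG00000146674, 7:45951844-45961473, minus strand) face each other with their 3′ ends 18.6 kb apart. IGFBP2 (ENSG00000115457, 2:217497551-217529159, plus strand) and IGFBP5 (ENSG00000115461, 2:217536828-217560272, minus strand) do so at a distance of 7.67 kb. IGFBP4 (ENSG00000141753) is at 17:38599702-38613977 on the plus strand, IGFBP6 (ENSG00000167779) at 12:53491220-53496129 on the plus strand, and IGFBP7 (ENSG00000163453) at 4:57896939-57976551 on the minus strand. The 3′ end of IGFBP7 overlaps the end of POLR2B, on the opposite strand, by 386 bases. Since it is not given here whether the counting used strand, 3′ reads of these 2 genes may have been split between them and IGFBP7 counts are uncertain to that extent.

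RefSeq promoter windows on GRCh38.p14 were at hand for 5 of the 7 members, IGFBP1 and IGFBP7 being the ones without, and IGFBP2 had 3 windows. In the 250 bases before the start site, read on both strands, the letters TATANA (N being any base) were found in 2 of the 7 windows, those of IGFBP3 and IGFBP4. These letters occur in 17.7% of the 35116 promoter windows of the same length. The letters GGGCGG were found in 5 of the 7 windows and in 42.6% of all windows, and a p53 half-site in 1 of the 7, the most downstream window of IGFBP2, and in 5.57% of all. The 2 windows with TATANA are shown because IGFBP3 and IGFBP4 also rose with etoposide in WT cells of both series, as described below. IGFBP7 rose in both as well but has no window, and a link between the letters and the rise was not tested. Capitals mark TATANA and GGGCGG on either strand.
IGFBP3 promoter, chr7:45921273-45921522, minus strand: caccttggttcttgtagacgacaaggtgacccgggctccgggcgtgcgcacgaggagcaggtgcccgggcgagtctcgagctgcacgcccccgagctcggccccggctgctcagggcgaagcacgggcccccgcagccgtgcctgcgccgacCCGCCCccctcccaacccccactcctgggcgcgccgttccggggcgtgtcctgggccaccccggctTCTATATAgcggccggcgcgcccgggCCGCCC
IGFBP4 promoter, chr17:40443200-40443449, plus strand: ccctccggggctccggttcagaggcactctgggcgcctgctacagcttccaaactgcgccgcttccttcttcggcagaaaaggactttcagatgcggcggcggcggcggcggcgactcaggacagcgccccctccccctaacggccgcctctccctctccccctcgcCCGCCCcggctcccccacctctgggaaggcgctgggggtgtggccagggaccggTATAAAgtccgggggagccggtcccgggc
In IGFBP3 the second of the 3 blocks of capitals holds overlapping TATANA matches on both strands, of which the one in the printed direction begins 30 bases before the start, and the other blocks are GGGCGG read on the opposite strand. The TATANA match of IGFBP4 begins 29 bases before the start. A match is a description of the letters and not a test of any factor.

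The counts are of 3′ ends, one read per transcript end, so that they are not divided by transcript length. In WT control cells of the DAXX series, IGFBP6 (81.0 ± 4.4 CPM), IGFBP7 (60.1 ± 4.68) and IGFBP3 (44.5 ± 5.04) gave the most counts, followed by IGFBP2 (12.6 ± 0.387), IGFBP1 (6.72 ± 1.05) and IGFBP4 (4.13 ± 1.14). IGFBP5 was near the detection limit, at 2, 1 and 2 counts. In WT control cells of the ATRX series IGFBP6 (91.8 ± 10.1 CPM), IGFBP7 (49.9 ± 3.37) and IGFBP3 (40.1 ± 7.83) again gave the most counts, IGFBP2 was at 19.3 ± 4.65 CPM, IGFBP1 at 9.60 ± 0.799 and IGFBP4 at 4.47 ± 1.062. IGFBP5 had 21 summed counts there against 5 in the DAXX series, a ratio of 3.02 with an exact 95% counting interval of 1.11 to 10.3 (adjusted p = 0.21). Between the WT control groups, only IGFBP1 passed the test, at −0.51 ± 0.17 on the log2 scale (SE, adjusted p = 0.0451) in the DAXX series against the ATRX series, among 13.2% of 16674 genes tested (6.01% higher and 7.22% lower). That call is weak, since leaving out 5 of the 6 libraries one at a time ended it (adjusted p from 0.0531 to 0.164 in those 5).

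**Figure D1:**
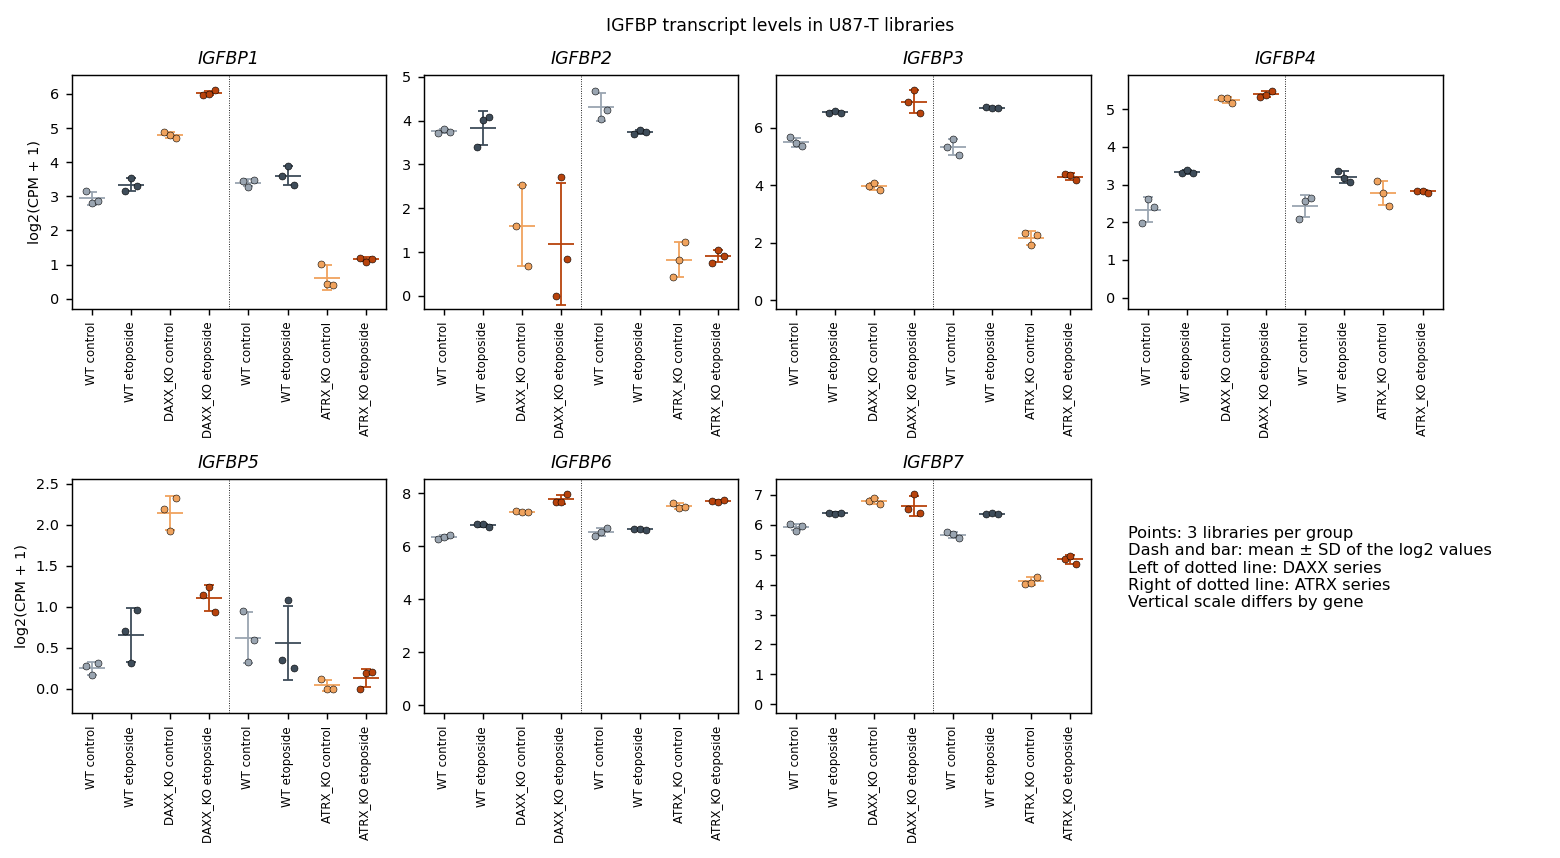
Transcript level of each IGFBP gene in 24 libraries, as log2(CPM + 1) on the vertical axis, by group on the horizontal axis. Points are libraries and dashes with bars are the mean ± SD of the log2 values over 3 libraries. IGFBP1 and IGFBP4 stand highest in DAXX_KO, IGFBP2 is low in both knockouts, and IGFBP6 is above WT in both.

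Loss of DAXX was first compared with WT in control cells. All 7 members passed the test, 5 higher and 2 lower, against 53.4% of the 15247 genes tested (26.7% higher and 26.6% lower). The call of IGFBP5 is a description only, for a reason given below. IGFBP5, IGFBP4 and IGFBP1 rose most, IGFBP6 and IGFBP7 rose less, and IGFBP2 and IGFBP3 fell. The median absolute log2 change was 2.03 over the members and 0.44 over all genes tested. In these bulk libraries, less RNA per cell and fewer cells that carry a transcript cannot be told apart.

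IGFBP4 was at 2.92, 5.19 and 4.28 CPM in WT control cells and at 38.4, 38.2 and 34.8 CPM in DAXX_KO. The groups lay far apart, and the log2 difference was 3.21 ± 0.15 (SE, 9.24-fold, adjusted p = 1.27e-12). IGFBP1 was at 7.93, 6.01 and 6.23 CPM in WT and at 28.8, 26.9 and 25.3 CPM in DAXX_KO, a rise of 2.03 ± 0.13 (4.07-fold, adjusted p = 1.11e-10). IGFBP5 went from 2, 1 and 2 counts in WT to 28, 21 and 33 counts in DAXX_KO (adjusted p = 1.33e-06). The gene passed the filter on low counts of this series through these DAXX_KO control libraries. Since that high group also makes the difference, the call is given as a description only. The IGFBP5 ratio from the summed counts, 82 against 5, was 18.2 with an exact 95% counting interval of 7.49 to 57.5. That interval covers counting error only and leaves out the spread between libraries.

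IGFBP6 rose from 76.7, 80.6 and 85.5 CPM in WT to 159, 156 and 156 CPM in DAXX_KO, by 0.99 ± 0.08 (1.98-fold, adjusted p = 4.76e-09). IGFBP7 rose from 63.8, 54.8 and 61.7 CPM to 112, 117 and 103 CPM, by 0.91 ± 0.12 (1.88-fold, adjusted p = 2.79e-06). Neither gene had overlapping groups. IGFBP3 was at 50.1, 43.1 and 40.3 CPM in WT and at 14.7, 15.7 and 13.4 CPM in DAXX_KO, a fall of 1.58 ± 0.17 (adjusted p = 2.2e-07). Of the convergent pair on chromosome 7, IGFBP1 had thus risen and IGFBP3 fallen in the same clone.

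IGFBP2 was uneven among the DAXX_KO libraries. It was at 12.2, 13.0 and 12.5 CPM in WT control cells and at 2.04, 4.76 and 0.605 CPM in DAXX_KO, from counts of 16, 36 and 5. All 3 DAXX_KO libraries lay below WT, but they were widely spread, and replicate 2 was also the highest of the DAXX_KO libraries with etoposide. The fall was 2.33 ± 0.56 on the log2 scale (adjusted p = 0.00158), and without replicate 2 of DAXX_KO the difference was −3.22. DESeq2, the tool of the study's own tests, gave the same direction but no call (−2.35, adjusted p = 0.0714), and over all alternatives the adjusted p ran from 4.38e-22 to 0.0714.

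Loss of ATRX gave another picture. In ATRX_KO control cells 6 members could be tested, and IGFBP1, IGFBP2, IGFBP3 and IGFBP7 fell, IGFBP6 rose and IGFBP4 was not called, against 41.8% of 16371 genes tested (20.8% higher and 21.0% lower). The median absolute log2 change was 2.55 over the 6 members and 0.36 over all genes tested.

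IGFBP2 fell from 24.5, 15.5 and 17.9 CPM in WT to 0.348, 0.753 and 1.34 CPM in ATRX_KO, by 4.53 ± 0.28 on the log2 scale (23.0-fold, adjusted p = 1.67e-09), which left 4, 9 and 17 counts in the ATRX_KO libraries. IGFBP1 fell from 10.03, 8.68 and 10.1 CPM to 1.04, 0.335 and 0.316 CPM, by 4.09 ± 0.31 (17.0-fold, adjusted p = 1.85e-08). At 4 to 12 counts per ATRX_KO library these remnants of IGFBP1 were close to the limit of 3 counts, and without ATRX_KO replicate 1, the one with 12 counts, the difference was −4.83. IGFBP3 fell from 39.4, 48.3 and 32.7 CPM to 4.09, 2.76 and 3.79 CPM, a log2 difference of −3.497 ± 0.16 (11.3-fold lower, adjusted p = 4.9e-11). Both members of the chromosome 7 pair were thus lower in ATRX_KO.

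IGFBP7 fell from 52.7, 50.8 and 46.2 CPM in WT to 15.4, 15.6 and 18.3 CPM in ATRX_KO, by 1.60 ± 0.10 (adjusted p = 1.68e-09). IGFBP6, the exception among the called members, rose from 82.3, 90.9 and 102 CPM to 199, 174 and 176 CPM, by 1.00 ± 0.08 (adjusted p = 4.65e-08). IGFBP4 was at 3.27, 4.89 and 5.26 CPM in WT and at 7.48, 5.86 and 4.43 CPM in ATRX_KO, where the groups overlapped (log2 difference 0.40 ± 0.22, adjusted p = 0.152), and without ATRX_KO replicate 3 the difference was 0.58 with an adjusted p of 0.0449 (0.0449 to 0.511 over the alternatives). Its 95% interval reached from −0.02 to 0.83, so that a rise of the size seen in DAXX_KO lies outside it.

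IGFBP5 did not pass the filter on low counts in the ATRX series, so that the model chosen for that series holds no test of it. Its counts were 12, 3 and 6 in WT control cells and 1, 0 and 0 in ATRX_KO control cells. All WT libraries were above all ATRX_KO libraries, and the summed counts of 21 against 1 gave a ratio of 20.8 with a counting interval of 3.34 to 859. With etoposide the counts were 3, 12 and 2 in WT and 0, 2 and 2 in ATRX_KO, a ratio of 5.2 with an interval of 1.7 to 21.2, and the groups touched at 2 counts. Under alternatives that kept the gene, IGFBP5 was called lower in ATRX_KO control cells, with an adjusted p of 0.00561 without a filter and 0.00215 with all 24 libraries in one model (0.00215 to 0.0479 over those that kept it). With etoposide it was called lower with all 24 libraries (adjusted p = 0.0242) and was not called without a filter (adjusted p = 0.0775), within a range of 0.0242 to 0.147. In the model of all 24 libraries the gene passed the filter through the DAXX series, where DAXX_KO control cells had 28, 21 and 33 counts. The calls of that model are therefore given as a description only.

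**Figure D2:**
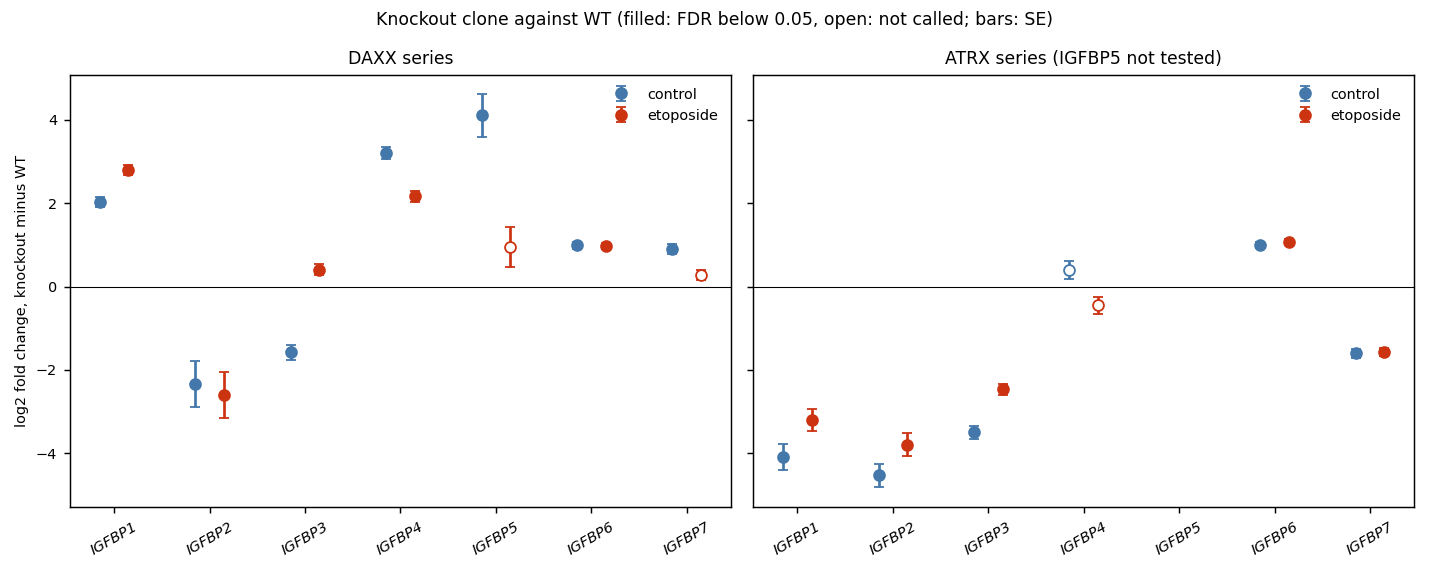
Log2 fold change of each IGFBP gene in the knockout clone against WT of the same series (vertical axis), in control cells and with etoposide, for the DAXX series on the left and the ATRX series on the right. Points are edgeR estimates from 3 libraries per group, bars are SE, and filled points passed an FDR of 0.05. IGFBP6 sits near 1 in all 4 comparisons, whereas IGFBP1 is above 0 in DAXX_KO and below 0 in ATRX_KO.

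The knockouts were set against each other in one model of all 24 libraries, each relative to WT of its own series. In control cells 6 members were higher in DAXX_KO than in ATRX_KO relative to WT and none was lower, against 34.1% of 16674 genes tested (17.0% higher and 17.2% lower). IGFBP1 differed by 6.12 ± 0.30 on the log2 scale (69.3-fold, adjusted p = 1.73e-14), IGFBP4 by 2.81 ± 0.27, IGFBP7 by 2.51 ± 0.17 and IGFBP3 by 1.92 ± 0.27. The IGFBP1 value rests on the 4 to 12 counts per library in ATRX_KO control cells, and without replicate 1 of these it was 6.84. IGFBP1 and IGFBP7 thus moved in opposite directions in the 2 clones, and IGFBP3 fell in both but further in ATRX_KO. IGFBP5 was called too (fitted value 7.99, adjusted p = 4.65e-06), but with 1 count over the ATRX_KO control libraries its fitted size depends on the prior count and is no bound. It also passed the filter of this model only through the DAXX series, where DAXX_KO control cells had 28, 21 and 33 counts. Since that high group also makes the difference, the call is given as a description only.

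IGFBP2 fell in both clones, and the difference of 2.19 ± 0.82 between them (adjusted p = 0.0404) rested on single libraries. Without replicate 2 of the DAXX_KO control cells it was 1.30 with an adjusted p of 0.334, and over all alternatives the adjusted p ran from 4.09e-07 to 0.334. Leaving out any of 8 libraries in turn ended the call. IGFBP6 rose by the same amount within error, the difference being −0.01 ± 0.11 with a 95% interval from −0.23 to 0.22. With etoposide 5 members differed, all higher in DAXX_KO, against 34.5% of all genes (17.7% higher and 16.8% lower), namely IGFBP1, IGFBP3, IGFBP4, IGFBP5 and IGFBP7.

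Each member was also set against its neighbours, the 30 tested genes on each side of it on its chromosome, to see whether its region had moved as a whole. These windows can reach unequally far to the 2 sides, the one shared by IGFBP1 and IGFBP3 in the DAXX series holding genes that start between 42971975 and 65338061 on chromosome 7. In control cells the median log2 change of the neighbours was between −0.27 and 0.31 in DAXX_KO and between 0.04 and 0.18 in ATRX_KO. Every called member lay outside the quartiles of its neighbours in these comparisons. IGFBP4 in ATRX_KO, which was not called, lay outside them too (0.40, with an upper quartile of 0.35). Many neighbours lie outside their own quartiles as well, so that this alone does not set a member apart. The neighbours of IGFBP7 in DAXX_KO had a median of 0.31, with 26 called higher and 6 lower, and relative to them the rise of IGFBP7 was 0.60 instead of 0.91. Those of IGFBP4 had a median of −0.27, and IGFBP4 stood 3.48 above them. In the comparisons with etoposide described below, 7 calls lay within the quartiles of the neighbours. These were IGFBP3 in DAXX_KO against WT with etoposide (0.40, or 0.10 relative to the neighbours' median), the etoposide rise of IGFBP6 in WT of the DAXX series (0.49, or 0.17), in DAXX_KO (0.48, or 0.15) and in ATRX_KO (0.21, or 0.080), that of IGFBP7 in WT of both series, and the fall of IGFBP2 in WT of the ATRX series.

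**Figure D3:**
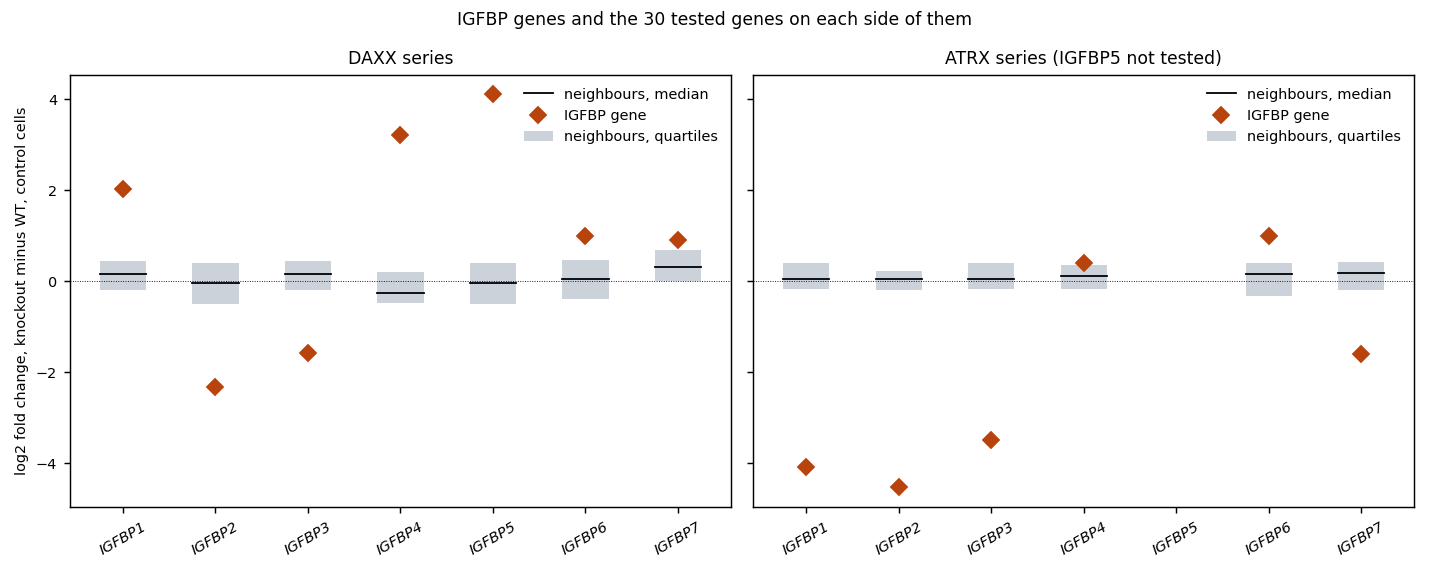
Log2 fold change in control cells, knockout minus WT (vertical axis), for each IGFBP gene (diamonds) and for the 30 tested genes on each side of it (line at the median, box from the lower to the upper quartile). Neighbour medians lie between −0.27 and 0.31, and IGFBP4 in ATRX_KO is the one member plotted that was not called.

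The response to etoposide was measured in WT cells first. In the DAXX series 6 of the 7 members rose and none fell, against 60.2% of genes tested (29.6% higher and 30.6% lower). In the ATRX series 3 of the 6 tested members rose and IGFBP2 fell, against 61.5% (31.7% higher and 29.8% lower). IGFBP3, IGFBP4 and IGFBP7 were higher in both series. The median absolute log2 change of the members (0.51 for the DAXX series, 0.68 for the ATRX series) was close to that of all genes tested, 0.55 and 0.61.

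IGFBP3 went from 50.1, 43.1 and 40.3 CPM to 91.5, 95.1 and 90.8 CPM with etoposide in WT cells of the DAXX series, a rise of 1.10 ± 0.14 (2.14-fold, adjusted p = 1.55e-06). In WT cells of the ATRX series it went from 39.4, 48.3 and 32.7 CPM to 106, 103 and 102 CPM, a rise of 1.41 ± 0.12 (2.66-fold, adjusted p = 2.48e-08). In WT cells of both series every treated library was thus above every untreated one. IGFBP4 reached 8.88, 9.51 and 8.85 CPM in the DAXX series, a rise of 1.19 ± 0.17 (adjusted p = 7.21e-06), and 9.34, 8.05 and 7.32 CPM in the ATRX series, a rise of 0.93 ± 0.21 (adjusted p = 0.00128).

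IGFBP7 rose to 84.1, 80.9 and 83.7 CPM in the DAXX series (0.51 ± 0.12, adjusted p = 0.00123) and to 82.0, 83.1 and 81.4 CPM in the ATRX series (0.76 ± 0.09, adjusted p = 1.52e-06). IGFBP6 rose in the DAXX series, to 112, 114 and 105 CPM (0.49 ± 0.08, adjusted p = 3.37e-05), and was at 98.7, 99.4 and 97.0 CPM in the ATRX series, within the WT control range there (0.14 ± 0.08, adjusted p = 0.152; 0.033 to 0.549 over the alternatives, with a call at 0.0463 when WT control replicate 3 was left out). IGFBP1 was called in the DAXX series (0.49 ± 0.15, adjusted p = 0.00721) and not in the ATRX series (0.28 ± 0.21, adjusted p = 0.276), and without replicate 2 of the treated WT cells of the DAXX series the call ended (0.37, adjusted p = 0.061). Whether these WT responses differ between the series was not tested.

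The calls of IGFBP5 and IGFBP2 in WT cells also depended on single libraries and on the model. IGFBP5 went from 5 to 14 summed counts in the DAXX series, a ratio of 3.09 with a counting interval of 1.05 to 11, and its adjusted p of 0.0438 rose above the threshold when any of 5 of the 6 libraries was left out, up to 0.216, and was 0.0951 with all 24 libraries in one model and 0.074 with DESeq2. IGFBP2 fell by 0.60 ± 0.20 in the ATRX series (adjusted p = 0.0159), from 24.5, 15.5 and 17.9 CPM to 11.9, 12.9 and 12.3 CPM. Without WT control replicate 1, the highest of these libraries, the fall was 0.40 with an adjusted p of 0.132, and with all 24 libraries in one model its adjusted p was 0.167 (0.00114 to 0.167 over the alternatives).

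In DAXX_KO cells etoposide raised IGFBP3, IGFBP1 and IGFBP6 and lowered IGFBP5, against 54.5% of genes called (26.8% higher and 27.8% lower). IGFBP3 rose from 14.7, 15.7 and 13.4 CPM to 119.6, 158 and 89.7 CPM, by 3.08 ± 0.16 on the log2 scale (8.43-fold, adjusted p = 6.47e-12). The treated libraries were widely spread, and the lowest of them was still far above every untreated library. IGFBP1 rose from 28.8, 26.9 and 25.3 CPM to 61.8, 63.3 and 67.8 CPM, by 1.26 ± 0.10 (2.39-fold, adjusted p = 2.42e-09). IGFBP5 fell from 28, 21 and 33 counts to 10, 13 and 8 counts, by 1.55 ± 0.38 (adjusted p = 0.00171). The gene passed the filter of the series through the untreated DAXX_KO cells, from which this fall is measured. The call is therefore given as a description only.

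IGFBP6 rose by 0.48 ± 0.08 in DAXX_KO (adjusted p = 2.88e-05), to 201, 205 and 249 CPM. IGFBP4 stayed near its high untreated level, at 38.9, 40.8 and 43.9 CPM (0.16 ± 0.11, adjusted p = 0.234). IGFBP7 was at 90.7, 129 and 82.5 CPM, around the untreated DAXX_KO libraries (−0.13 ± 0.12, adjusted p = 0.377), and without replicate 2 of the treated cells it was lower by 0.34 with an adjusted p of 0.00203. IGFBP2 was at 0, 53 and 7 counts with etoposide and was not called (−0.13 ± 0.71, adjusted p = 0.897), whereas without replicate 2 of the treated cells the value was −2.51 with an adjusted p of 0.0116. Over the alternatives the adjusted p of IGFBP7 ran from 0.00203 to 0.978 and that of IGFBP2 from 0.0116 to 0.93.

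In ATRX_KO cells etoposide raised 4 of the 6 tested members, IGFBP3, IGFBP7, IGFBP1 and IGFBP6, and lowered none, against 49.5% of genes called (24.3% higher and 25.2% lower). IGFBP3 rose from 4.09, 2.76 and 3.79 CPM to 19.9, 19.6 and 17.0 CPM, by 2.44 ± 0.17 (5.42-fold, adjusted p = 4.28e-09). Even so the treated ATRX_KO cells stayed below the untreated WT cells of the series, of which the lowest library was at 32.7 CPM. IGFBP7 rose from 15.4, 15.6 and 18.3 CPM to 28.3, 30.3 and 24.9 CPM, by 0.80 ± 0.10 (adjusted p = 5.93e-06).

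IGFBP1 rose from 12, 4 and 4 counts to 15, 16 and 17 counts (1.16 ± 0.40, adjusted p = 0.0226) and IGFBP6 from 199, 174 and 176 CPM to 208, 203 and 211 CPM (0.21 ± 0.08, adjusted p = 0.0357). Both calls were fragile, with adjusted p up to 0.106 for IGFBP1 and up to 0.137 for IGFBP6 among the alternatives, and the call of IGFBP1 ended without ATRX_KO control replicate 2 (adjusted p = 0.0976) or replicate 3 (0.106), the libraries with 4 counts, and without treated replicate 1 (0.05). Without ATRX_KO control replicate 1, which had 12 counts, the rise of IGFBP1 was 1.90. The call of IGFBP6 ended without any of 5 of the 6 libraries, where its adjusted p was 0.0572 to 0.13. IGFBP2 (0.13 ± 0.41) and IGFBP4 (0.07 ± 0.21) were not called in ATRX_KO.

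**Figure D4:**
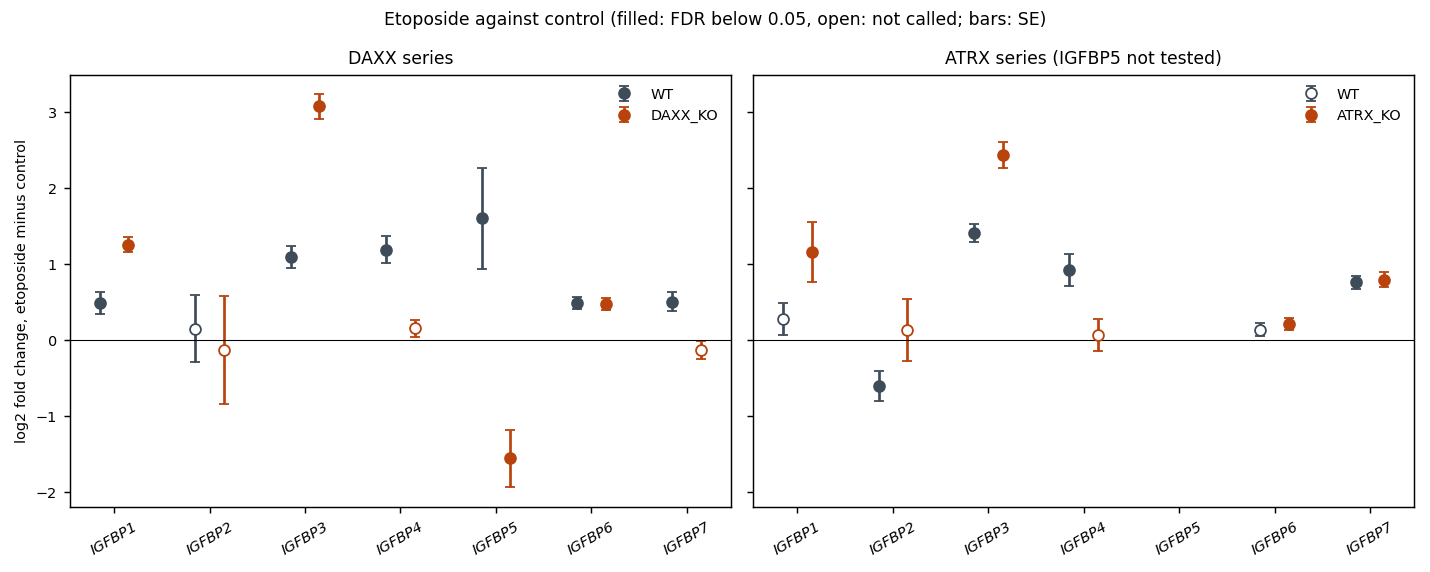
Log2 fold change of each IGFBP gene with etoposide against control (vertical axis) in WT and knockout cells of the DAXX series (left) and the ATRX series (right). Points are edgeR estimates from 3 libraries per group, bars are SE, and filled points passed an FDR of 0.05. The IGFBP3 response is larger in each knockout than in WT, and IGFBP5 moves up in WT and down in DAXX_KO. The IGFBP5 fall is a description only, since the untreated DAXX_KO cells let the gene pass the filter.

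The difference between the knockout and WT responses was tested as an interaction. For IGFBP5 the outcome is a description only, as explained below. In the DAXX series 5 of 7 members passed, IGFBP3 and IGFBP1 with a larger rise in DAXX_KO, IGFBP4 and IGFBP7 with a rise in WT and no call in DAXX_KO, and IGFBP5 with a rise in WT and a fall in DAXX_KO, against 14.2% of genes tested (8.38% higher and 5.79% lower). In the ATRX series IGFBP3 passed, again with a larger response in the knockout, against 16.0% of genes (8.36% higher and 7.64% lower). IGFBP3 was thus the member whose interaction was called in both series, at 1.98 ± 0.22 in DAXX_KO (adjusted p = 5.62e-06) and 1.03 ± 0.21 in ATRX_KO (adjusted p = 0.00358).

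For IGFBP1 the interaction with DAXX_KO was 0.77 ± 0.18 (adjusted p = 0.00619), for IGFBP4 −1.04 ± 0.21 (adjusted p = 0.00196), and for IGFBP7 −0.63 ± 0.17 (adjusted p = 0.0145). IGFBP4 was already at 37.1 ± 2.05 CPM in untreated DAXX_KO, well above the level that etoposide gave in WT cells (9.08 ± 0.372 CPM). IGFBP2 was not called (−0.28, adjusted p = 0.881), but without replicate 2 of the treated DAXX_KO cells it was −2.66 with an adjusted p of 0.0406, within a range of 0.0406 to 0.972 over the alternatives. For IGFBP5 the interaction was −3.16 ± 0.77 (adjusted p = 0.0084), which rested on few counts. It went to an adjusted p of 0.0529 without replicate 3 of the treated WT cells, within a range of 0.00481 to 0.0529 over the alternatives. The gene passed the filter of this series through the untreated DAXX_KO cells, a high group that also enters the interaction. The IGFBP5 interaction is therefore given as a description only. In ATRX_KO the interaction of IGFBP4 pointed the same way but was not called (−0.86 ± 0.30, adjusted p = 0.0642), nor was that of IGFBP1 (0.88 ± 0.45, adjusted p = 0.207). Both were called when a single library was left out, IGFBP4 without ATRX_KO control replicate 3 (adjusted p = 0.0219) and IGFBP1 without ATRX_KO control replicate 1 (1.63, adjusted p = 0.0278), within ranges of 0.0219 to 0.171 and 0.0278 to 0.432 over the alternatives.

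With etoposide present in both arms, the order of knockout and WT was therefore not the same as in control cells for every member. In DAXX_KO with etoposide, IGFBP1 (2.79 ± 0.11), IGFBP4 (2.17 ± 0.13), IGFBP6 (0.98 ± 0.08) and IGFBP3 (0.40 ± 0.13, adjusted p = 0.0162) were higher than in WT and IGFBP2 was lower (−2.61 ± 0.55), against 53.0% of genes called (27.9% higher and 25.2% lower). IGFBP3 had been lower in DAXX_KO without drug. Its call with drug depended on 1 library, since without replicate 2 of the treated DAXX_KO cells the difference was 0.18 with an adjusted p of 0.166. IGFBP2 differed by −4.998 without that library, which had 53 counts where the other treated DAXX_KO libraries had 0 and 7. IGFBP5 (adjusted p = 0.108) and IGFBP7 (0.27, adjusted p = 0.0574) were not called there. IGFBP7 was called higher without treated DAXX_KO replicate 1 (0.34, adjusted p = 0.0412) or replicate 3 (0.41, adjusted p = 0.00361), within a range of 0.00361 to 0.562 over the alternatives. Leaving out single libraries also took its value as low as 0.063.

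In ATRX_KO with etoposide the same 5 members were called as in control cells and in the same directions, with IGFBP1 (−3.21 ± 0.27), IGFBP2 (−3.79 ± 0.28), IGFBP3 (−2.47 ± 0.13) and IGFBP7 (−1.57 ± 0.09) lower, IGFBP6 (1.07 ± 0.08) higher and IGFBP4 not called, its value being below 0 (−0.45 ± 0.21, adjusted p = 0.0865; 0.0424 to 0.303 over the alternatives) where it had been above 0 in control cells, against 45.9% of genes (23.0% higher and 22.9% lower). Within a series the control and etoposide comparisons used different libraries of the same clone in one model, so that they do not stand for separate clones.

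The order of the 8 groups summarises each member. IGFBP1 was highest in DAXX_KO with etoposide (64.3 ± 3.08 CPM), then in DAXX_KO control cells (27.0 ± 1.75), and its 2 lowest groups were those of ATRX_KO, while neighbouring WT groups overlapped at ranks 3 to 5. IGFBP3 was highest in DAXX_KO with etoposide (123 ± 34.5 CPM), overlapping WT with etoposide of the ATRX series (104 ± 2.02), and lowest in untreated ATRX_KO (3.55 ± 0.697). IGFBP2 was higher in each of the 4 WT groups than in any knockout group, and the knockout groups overlapped from rank to rank.

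IGFBP6 had all 4 knockout groups above all 4 WT groups, from 157 ± 1.60 CPM in DAXX_KO control cells up to 218 ± 26.5 CPM in DAXX_KO with etoposide. IGFBP4 had its DAXX_KO groups on top, at 41.2 ± 2.54 and 37.1 ± 2.05 CPM, and the other 6 groups between 4.13 ± 1.14 and 9.08 ± 0.372 CPM. IGFBP7 ran from 110.4 ± 7.21 CPM in DAXX_KO control cells to 16.4 ± 1.60 CPM in ATRX_KO control cells, the upper 4 groups overlapping from rank to rank. Across the 24 libraries, which fall into these 8 groups, the closest relations among members on log2(CPM + 1) were Pearson's r of 0.896 between IGFBP1 and IGFBP7 and of −0.896 between IGFBP2 and IGFBP6, given as a description only.

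The genes whose levels followed a member most closely over the 24 libraries, among 10841 genes with a mean of at least 5 CPM, were HLA-DRB1 (r = 0.982) and HLA-DRB5 (r = 0.973) for IGFBP1, which are near-identical paralogs that may share reads. They were THBS2 (0.957) and MAP2 (0.955) for IGFBP4, COPS8 (0.950) and ERVK3-1 (0.945) for IGFBP3, and CFAP298 (0.945) and THY1 (0.939) for IGFBP2. They were USP53 (0.965) and LINC01234 (0.964) for IGFBP6 and SMIM19 (0.968) and ZBED5-AS1 (0.956) for IGFBP7. IGFBP5 had too few counts for this measure.

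The ligands, receptors, proteases and adaptors of the IGF axis were read from a list of 28 genes beside the members. In control cells 12 of 21 tested were higher and 6 lower in DAXX_KO, against 53.4% of all genes called, with a median log2 change of 0.39 against 0.02 over all genes. In ATRX_KO 13 of 22 were higher and 6 lower, against 41.8%, with a median of 0.68 against 0.02. Of the list, 12 genes were called in the same direction in both clones. How many of all genes were so called was not counted, so this number does not set the list apart. With etoposide in WT cells 9 of 21 were higher and 7 lower in the DAXX series, against 60.2% of all genes called, and 6 of 22 higher and 7 lower in the ATRX series, against 61.5%. The count of the list was close to the share of all genes in the ATRX series and above it in the DAXX series, which was not tested.

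The ligand IGF2 was at 23, 17 and 12 counts in WT control cells of the DAXX series and at 0 in all 3 DAXX_KO control libraries. Against the limit of 3 counts per library it was at least 5.14-fold lower (adjusted p = 2.42e-06). In the ATRX series it was at 45, 40 and 54 counts in WT and at 0, 1 and 0 in ATRX_KO control cells (adjusted p = 3.5e-08), a ratio of 137 with a counting interval of 24.3 to 5470. IGF2 was thus near the detection limit in both clones. It overlaps the readthrough gene INS-IGF2, with which the counting may have split its reads. Etoposide raised it in WT cells, by 1.28 ± 0.32 (DAXX series) and 1.28 ± 0.24 (ATRX series), and in the knockouts it was at 5, 3 and 4 counts and at 11, 8 and 13 counts with etoposide. The other ligand, IGF1, was at or under 3 counts in 22 of 24 libraries, INS was at 0 in all, and the serum partner IGFALS was at 0 in all.

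The signalling receptor IGF1R was at 4.70, 6.84 and 5.13 CPM in WT control cells of the DAXX series and at 9.05, 8.73 and 13.1 CPM in DAXX_KO (0.93 ± 0.20, adjusted p = 0.000577). In the ATRX series it was at 4.28, 7.08 and 6.96 CPM in WT and at 9.48, 11.7 and 13.0 CPM in ATRX_KO (0.91 ± 0.19, adjusted p = 0.00095). Etoposide raised IGF1R in WT cells to 15.3 ± 0.287 and 23.96 ± 2.98 CPM, whereas the treated knockouts were at 10.9 ± 1.90 and 13.7 ± 1.57 CPM. The interaction was −1.43 ± 0.26 with DAXX_KO (adjusted p = 0.00108) and −1.72 ± 0.25 with ATRX_KO (adjusted p = 0.000279), so that IGF1R was higher than WT in untreated knockouts and lower than WT in treated ones. The clearance receptor IGF2R (0.81 ± 0.12 and 0.44 ± 0.13) and the insulin receptor INSR (1.36 ± 0.21 and 1.61 ± 0.16) also rose in both clones in control cells.

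PAPPA, the protease that cleaves IGFBP4 and IGFBP5, rose from 68.7 ± 1.19 to 259 ± 25.7 CPM in DAXX_KO (1.94 ± 0.08, adjusted p = 1.76e-13) and from 69.2 ± 3.00 to 242 ± 56.2 CPM in ATRX_KO (1.81 ± 0.14, adjusted p = 2.89e-08). STC1, a stanniocalcin that inhibits PAPPA, fell in both, by 2.43 ± 0.06 and 0.87 ± 0.13. STC2, the other stanniocalcin and likewise an inhibitor of PAPPA, went from 147 ± 4.39 to 55.1 ± 3.48 CPM in DAXX_KO (−1.39 ± 0.07) but from 113 ± 7.34 to 169 ± 13.3 CPM in ATRX_KO (0.58 ± 0.08, adjusted p = 3.09e-05). The protease was thus higher in both clones and STC1 lower in both, STC2 moved in opposite directions, and the substrate IGFBP4 was called higher in DAXX_KO and was not called in ATRX_KO. LRP1, an endocytic receptor that binds IGFBP3, rose by 1.10 ± 0.10 and 0.83 ± 0.14.

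Beside the ligands and receptors described above, of which IGF1R rose by 1.51 ± 0.19 and 2.02 ± 0.18, the genes of the list that etoposide moved most in the same direction in WT cells of both series were IGF2BP3, an mRNA-binding protein of IGF2 transcripts, which fell by 2.24 ± 0.08 and 2.05 ± 0.13, ADAM12, a protease of IGFBP3 and IGFBP5, which fell by 1.53 ± 0.08 and 1.36 ± 0.09, and IRS2, an adaptor of IGF1R and INSR, which rose by 1.22 ± 0.10 and 1.84 ± 0.13. Besides IGF1R, no other gene of the list had an interaction called in the same direction in both series. Of 13 genes outside the family that encode an IGFBP-type domain, 7 were tested in each series, and in control cells 3 were higher and 2 lower in DAXX_KO and 2 higher and 4 lower in ATRX_KO, against 53.4% and 41.8% of all genes called.

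**Figure D5:**
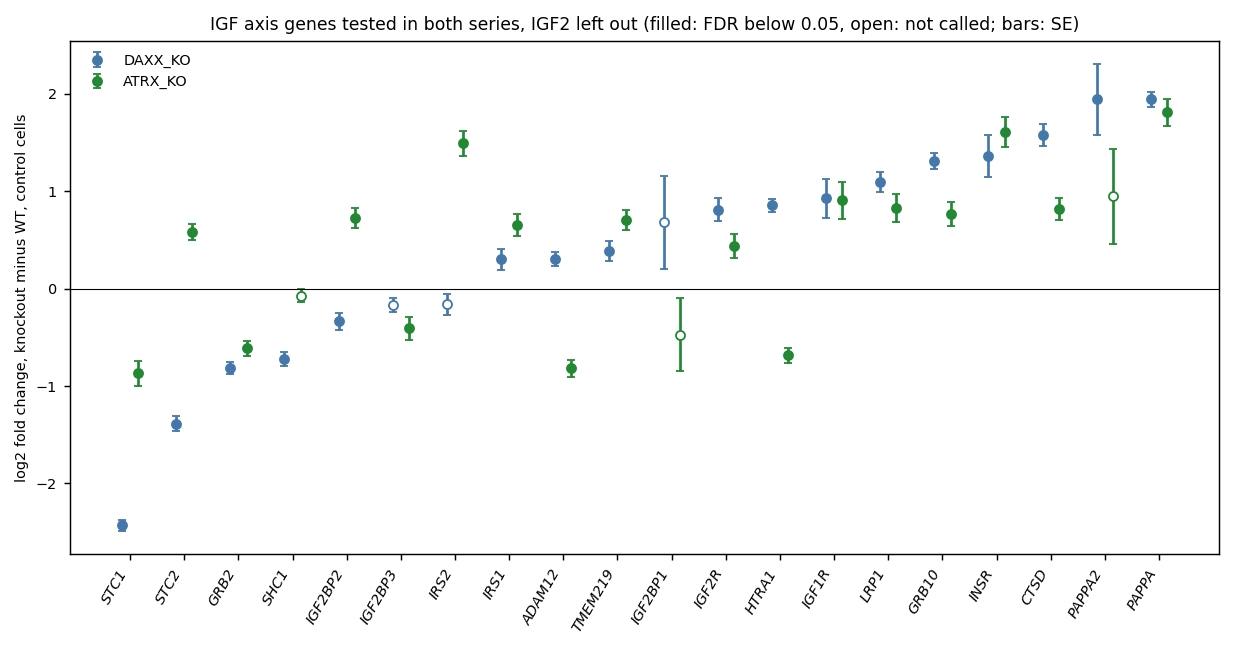
Log2 fold change in control cells, knockout minus WT (vertical axis), for the IGF axis genes tested in both series, ordered by the value in DAXX_KO. Points are edgeR estimates, bars are SE, and filled points passed an FDR of 0.05. PAPPA and INSR are higher and STC1 lower in both clones, whereas HTRA1 and ADAM12 go in opposite directions, and IGF2 is left out because its knockout libraries were near 0 counts.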

How the data were processed

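RNA-seq of U87-T cells was analysed in 24 libraries of 8 groups, assigned from the library titles. The authors prepared QuantSeq 3′ libraries, sequenced them from one end (75 bases), aligned the reads to hg19 with STAR and deposited expected counts per gene estimated with RSEM, as whole numbers without normalization. No sample column was left unused. Symbols and positions came from GENCODE release 44 on GRCh37, which matched 55501 of 57736 gene IDs (98.8% of counts), and promoter sequences from RefSeq on GRCh38.p14.

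Counts were tested with edgeR 4.0.16 (quasi-likelihood F-test, R 4.3.3), with TMM factors of 0.92 to 1.1, filterByExpr (minimum count 10, minimum total 15) and Benjamini-Hochberg adjustment over all genes tested, and called at an FDR of 0.05. The 12 libraries of a series shared one model of 4 groups, and contrasts between series used all 24 libraries. edgeR estimated a common coefficient of biological variation of 0.0825 (DAXX series) and 0.106 (ATRX series). A count of 3 was 0.21 to 0.402 CPM. On simulated data with 200 changed genes per effect, 167 (DAXX_KO) and 159 (ATRX_KO) were recovered for the knockout in control cells, with 16 and 10 false calls. For the interactions 135 and 131 were recovered, with 9 false calls each, among 15247 and 16371 genes. In the data a far larger share of genes was called for the knockout in control cells, 53.4% and 41.8%. The simulation does not cover that setting.

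The named genes were all 7 members, DAXX and ATRX, IGF1, IGF2, IGF1R, IGF2R and INSR, up to 3 further IGF axis genes per kind of contrast called in the same direction in both series (largest smaller absolute change first), and the 2 genes most correlated with each member. The members and lists were chosen with earlier results of these data known. The alternatives were DESeq2 1.42.0, RLE factors, library totals alone, no filter or at least 10 counts in every library, only the compared groups, all 24 libraries in one model, an FDR of 0.01, a replicate block, centring on neighbouring genes and leaving out each library. Replicate pairs differed by more than sampling noise (chi-square of 2.16 to 17.1 per degree of freedom over 24 pairs). The study's ChIP-seq and ATAC-seq data were not used here.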

Additional observations from a re-analysis of the deposited data

Results flagged for a closer look

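The response to etoposide differed between DAXX_KO and WT, by the interaction term of the edgeR model, for IGFBP3 (1.98, adjusted p = 5.62e-06), IGFBP4 (−1.04, adjusted p = 0.00196), IGFBP1 (0.77, adjusted p = 0.00619), IGFBP5 (−3.16, adjusted p = 0.0084) and IGFBP7 (−0.63, adjusted p = 0.0145), all on the log2 scale. Between ATRX_KO and WT it differed for IGFBP3 (1.03, adjusted p = 0.00358). The IGFBP5 value is a description only, since the gene passed the filter of the DAXX series through the untreated DAXX_KO cells. IGFBP3 was higher with etoposide in all 3 treated libraries of every line than in the untreated libraries of that line.

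The effect of DAXX_KO, relative to WT of its own series, differed from that of ATRX_KO in control cells for IGFBP1 (6.12, adjusted p = 1.73e-14), IGFBP7 (2.51, adjusted p = 8.97e-12), IGFBP4 (2.81, adjusted p = 4.62e-09), IGFBP3 (1.92, adjusted p = 3.04e-06), IGFBP5 (7.99, adjusted p = 4.65e-06) and IGFBP2 (2.19, adjusted p = 0.0404). With etoposide it differed for IGFBP1 (5.98, adjusted p = 1.9e-15), IGFBP3 (2.85, adjusted p = 3.37e-11), IGFBP7 (1.82, adjusted p = 1.96e-09), IGFBP4 (2.60, adjusted p = 2.84e-09) and IGFBP5 (3.19, adjusted p = 0.0156). The IGFBP5 values rest on at most 33 counts per library and on a filter that the gene passed through the DAXX series. That with etoposide was not called without replicate 2 of the treated WT cells of the ATRX series (2.05, adjusted p = 0.17). The IGFBP2 call in control cells ended when any of 8 libraries was left out, with a lowest value of 1.30 and an adjusted p up to 0.334. The fitted IGFBP5 value in control cells ranged from 7.39 to 9.65 with one library left out. Each clone stands for its knockout alone, and clone, gene and series cannot be told apart in these differences.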

How the results depend on the processing

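Of 1372 values of the members under alternatives, 1268 kept their direction and their side of the threshold, 54 lost the call, 21 gained one and 29 changed sign, for reasons that were not tested. At an FDR of 0.01, 1136 genes had an interaction with DAXX_KO and 1161 with ATRX_KO, 1023 differed between the WT groups, 2 members were called for etoposide in ATRX_KO and 0 between the WT groups. With at least 10 counts in every library fewer members were tested, and 3 were called in ATRX_KO against WT in control cells, in ATRX_KO against WT with etoposide and in each comparison of the 2 knockouts, and 0 between the WT groups (1 by the chosen settings), where library totals gave 2 and only the compared groups 3. Only the compared groups gave 2 members for etoposide in ATRX_KO, and all 24 libraries in one model gave 2 for the interaction with ATRX_KO. Leaving out one library at a time gave 2 to 4 members for etoposide in ATRX_KO, 1 to 2 for the interaction with ATRX_KO, and 0 to 1 members and 1106 to 1695 genes between the WT groups. Depth limits IGFBP5, at 33 counts or fewer per library, IGFBP1 and IGFBP2 in ATRX_KO, at 17 or fewer, and IGFBP2 in DAXX_KO, at 0 to 53.

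No value that changed sign was called by the chosen settings. Most were near 0, but IGFBP2 between the knockouts with etoposide was 1.16 by the chosen settings and −1.246 without replicate 2 of the treated DAXX_KO cells. The IGFBP6 interaction with DAXX_KO was 0.0024 with DESeq2 and 0.0025 with RLE factors, and its difference between the knockouts in control cells was 0.012 with at least 10 counts and 0.12 with library totals. With one library left out, IGFBP6 ranged from −0.10 to 0.042 for the interaction with DAXX_KO, from −0.0052 to 0.14 for that with ATRX_KO and from −0.10 to 0.051 between the knockouts in control cells. IGFBP2 ranged from −2.515 to 0.77 for etoposide in DAXX_KO, from −2.66 to 0.61 for the interaction with DAXX_KO, from −0.22 to 0.70 for etoposide in ATRX_KO and from −1.25 to 1.69 between the knockouts with etoposide. IGFBP7 ranged from −0.34 to 0.0047 for etoposide in DAXX_KO and from −0.029 to 0.13 for the interaction with ATRX_KO, and IGFBP4 from −0.11 to 0.26 for etoposide in ATRX_KO and from −0.33 to 0.089 between the WT groups.

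Scaling by library totals alone shifted the median log2 change of all genes by 0.185 for DAXX_KO in control cells, by −0.105 for etoposide in DAXX_KO, by −0.111 for their interaction and by 0.121 between the knockouts in control cells. The share of calls that were higher went from 50.1% to 66.2% for DAXX_KO in control cells, from 59.1% to 36.8% for its interaction, from 50.1% to 60.2% for ATRX_KO with etoposide, from 49.7% to 62.7% between the knockouts in control cells and from 45.4% to 29.3% between the WT groups.

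The deviations of same-numbered replicates from their group means correlated from −0.515 to 0.168 over 36 pairs, and the chosen model held no replicate block. Whether same-numbered libraries shared a culture or batch is not given and cannot be read from these values. A replicate block gave 1244 genes and 0 members between the WT groups, where IGFBP1 had an adjusted p of 0.118, and took the adjusted p to 0.0539 for IGFBP5 with etoposide in WT of the DAXX series and to 0.0539 for IGFBP6 with etoposide in ATRX_KO. It changed no other call of a member.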
